A study of Mus musculus with 34 samples.

Results

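The basement membrane genes were followed in cumulus cells (CCs), the granulosa-derived cells that surround the oocyte, in 34 RNA-seq libraries of C57BL/6J female mice. The set held 10 genes of the 25965 entries in the count table. They were the laminin chains Lama1, Lama5, Lamb1, Lamb2 and Lamc1, the collagen IV chains Col4a1 and Col4a2, the nidogens Nid1 and Nid2, and Hspg2, which encodes perlecan. The set was chosen by the level of Lama1, which separated the low weight gainers from 16-week HFD, so differences of Lama1 between groups that include either of them are given without a test. By the labels, the chow diet (CD) gave 11% of its energy from fat and the high-fat diet (HFD) 58%, and the study's methods give slightly higher shares. Both were fed from 8 weeks of age for 4 weeks (5 CD and 5 HFD libraries) or 16 weeks (6 CD and 7 HFD libraries). The low weight gainers (3 libraries) also ate HFD for 16 weeks, and the labels give no weight limit for the name. In the hyperleptinemia protocol, mice of the same age received saline (16 C, 3 libraries) or 100 µg of leptin per day (16 L, 5 libraries) for 16 days, in 2 injections per day. The females were superovulated before collection, and each library came from about 50 CCs. The labels place these cells in a single cumulus complex, and the study's methods count them per animal. P-values measure the spread between these libraries.

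Basement membranes are thin sheets of matrix in which laminin trimers, each of an α, a β and a γ chain, polymerise at the cell surface. Collagen IV, made mostly of α1 and α2 chains, forms a separate covalent network, and nidogens and the heparan sulfate proteoglycan perlecan bind to both. In the ovary a basement membrane encloses the granulosa layer of the follicle, and granulosa cells are also known to lay down patches of the same components among themselves.

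The upstream sequences of Hspg2 and Lamb1 are shown because these genes lay at opposite ends of the leptin comparison, and the overlap of the 2 collagen IV genes because their transcripts start head to head. All come from RefSeq on GRCm38.p6, and capitals mark the motif GGGCGG (a GC box) or its reverse complement CCGCCC. The first is chr4:137468553-137468768, the second chr12:31265043-31265233 and the third chr8:11312805-11312826, all on the plus strand.
Hspg2 upstream: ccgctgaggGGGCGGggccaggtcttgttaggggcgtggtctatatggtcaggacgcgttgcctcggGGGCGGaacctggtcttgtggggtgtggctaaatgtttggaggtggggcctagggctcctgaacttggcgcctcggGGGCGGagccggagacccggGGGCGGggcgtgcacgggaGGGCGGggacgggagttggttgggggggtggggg
Lamb1 upstream: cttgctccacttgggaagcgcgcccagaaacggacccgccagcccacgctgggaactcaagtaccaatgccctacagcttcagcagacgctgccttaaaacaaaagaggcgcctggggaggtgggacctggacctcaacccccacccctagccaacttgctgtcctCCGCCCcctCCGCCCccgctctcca
Col4a1 and Col4a2 shared start: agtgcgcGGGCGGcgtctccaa
Promoter windows from 250 bases before to 50 bases after the start were at hand for 7 members. The window of Hspg2 held 5 GC boxes, that of Lama5 held 4, Col4a2 3, Lamb1 2, Col4a1 and Nid1 1 each, and Lamb2 none, while 35.66% of 32851 windows of all genes held at least 1. The motif TATAAA, searched on both strands, was in none of the 7 windows and in 13.62% of all windows. Lama1, Lamc1 and Nid2 were not matched.

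Total counts ranged from 1104611 to 13207018 per library. Of 72 pairs of replicates, none held identical values. Granulosa and cumulus markers were present in all libraries (933 to 4962 CPM in sum, where CPM are counts per 1e+06 counts of a library, scaled with TMM factors), with Inha, Fst and Tnfaip6 the most abundant of the 14. The 11 markers of endothelial cells, which also make basement membrane, summed to between 8.49 and 63.4 CPM. Cdh5 (mean of 14.5 CPM over the 34 libraries) and Pecam1 (4.37) had counts in every group, while Plvap had no count in 6 of the 7 groups. Some libraries stood apart. 16 L 18 held 35950 CPM of 10 oviduct epithelium markers, against 129 to 1837 in the other 16 L libraries and 201 to 229 in 16 C, 1978 CPM of theca and stroma markers against at most 42.3 in every library outside 16 L, 10964 CPM of red blood cell markers, and the lowest granulosa sum. 16 L 21 held 1938 CPM of red blood cell markers. The libraries 16-week CD 1 and 2 were above the other 4 of their group in all 10 members, and the share of all genes with this order was not counted. Their theca and stroma markers summed to 12.2 and 8.30 CPM against 1.46 to 6.18 in the other 4, their macrophage and neutrophil markers to 90.7 and 66.1 against 204 to 489 and their granulosa markers to 2015 and 2143 against 2371 to 4432, and the part of these in the members' levels was not tested. The library 4-week HFD 5 held 345 CPM of oocyte markers. In a bulk library, fewer cells of a type and less RNA per cell cannot be told apart.

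Per kilobase of the longest transcript, the mean over the 34 libraries was highest for Col4a1 at 36.4 CPM per kb and Col4a2 at 24.0. Lama1 followed at 14.9, then Lamb1 at 9.99, Lamb2 at 8.73, Lamc1 at 6.58, Hspg2 at 5.82 and Nid1 at 2.90. Nid2 (0.218) and Lama5 (0.194) were lowest. Not divided by length, their means were 1.06 and 2.21 CPM, close to the detection limit, at which 3 counts in a library correspond to 0.215 to 2.76 CPM. Among the laminin α chains measured here, Lama1 was thus the abundant one, and each β and γ chain was within the range between Lama1 and Hspg2.

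**Figure D1:**
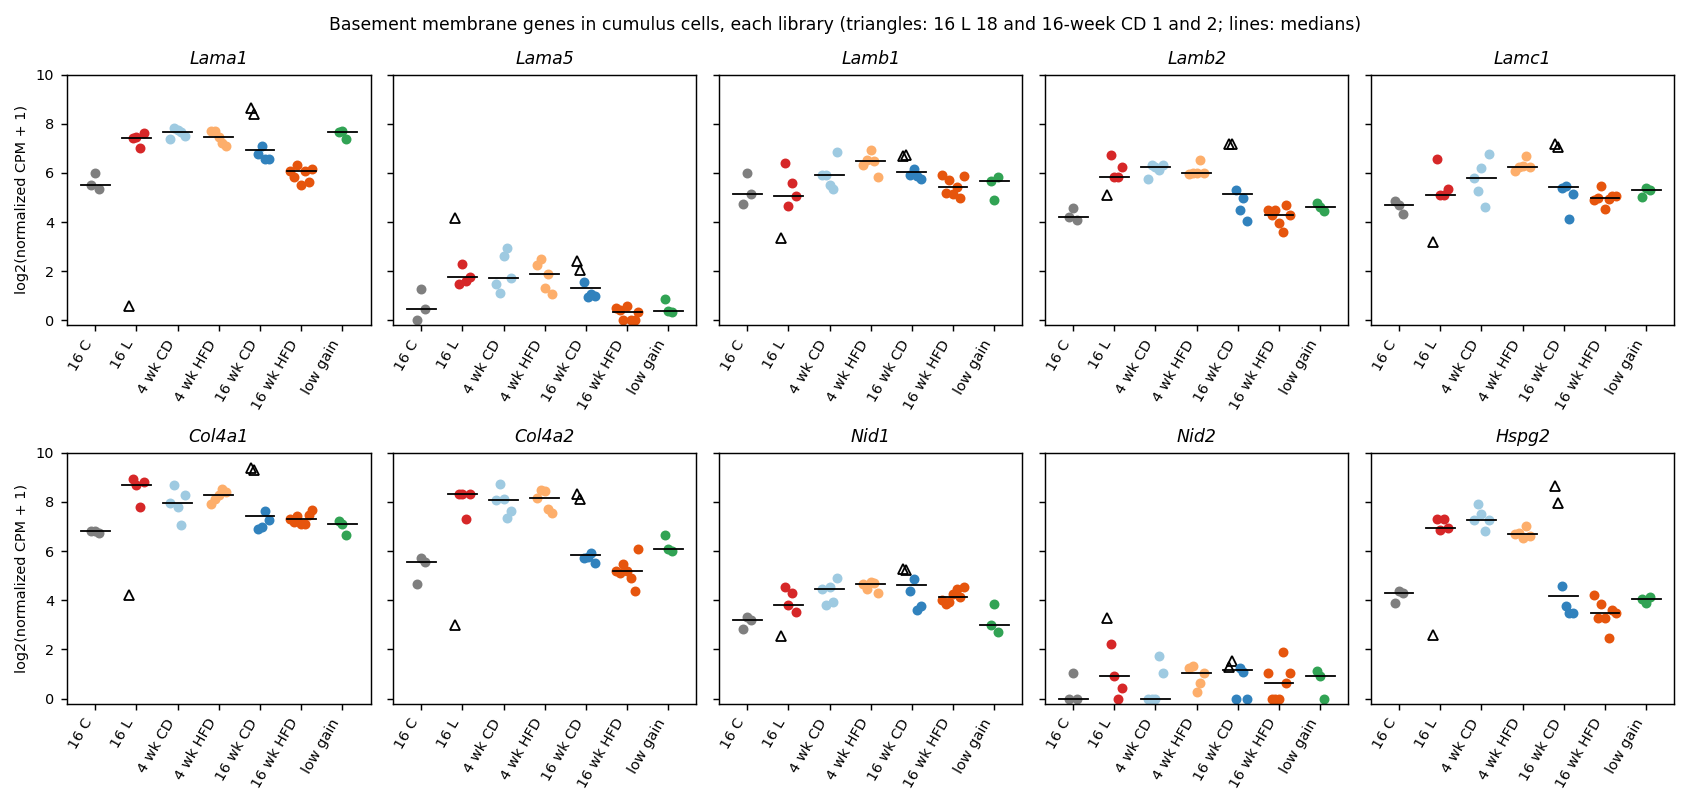
Level of each member in each library, as log2(normalized CPM + 1), by group, with group medians as lines and open triangles for 16 L 18 and 16-week CD 1 and 2. For 8 of the 10 members the 4 filled 16 L points lie above the 3 points of 16 C, and for all 10 the triangles of 16-week CD lie above the other 4 libraries of that group. The shares of all genes with these orders were not counted. With all 5 libraries of 16 L, 23.3% of all genes tested were separated from 16 C.

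Leptin for 16 days against saline came first. Lamb2, the laminin β2 chain, rose 1.77 ± 0.42 (SE) on the log2 scale in 16 L (adjusted p = 0.0368, edgeR), the only one of the 8 members that passed the filter to be called. All genes tested were called at 8.56% (1004 of 11723), in both directions. Lamb2 (chr9:108479862-108490530) was at 17.4, 22.96 and 15.8 CPM in 16 C and at 33.5, 104, 55.7, 55.8 and 73.6 CPM in 16 L libraries 18, 19, 20, 21 and 23. The groups did not overlap, as was true of 23.3% of all genes tested. Hspg2 (chr4:137468769-137570630) was at 13.6, 19.9 and 18.9 CPM in 16 C and at 5.00, 157, 116, 156 and 121 in 16 L. The value of 5.00 belonged to 16 L 18, and the other 4 libraries were far above every control. Its fitted difference was 2.64 ± 0.86 (adjusted p = 0.0786).

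The collagen IV chains had their low and high libraries in common. Col4a1 (chr8:11198423-11312826) was at 111, 111 and 105 CPM in 16 C and at 17.5, 495, 415, 221 and 453 in 16 L. Col4a2 (chr8:11312805-11449287) was at 24.3, 51.7 and 45.6 CPM in 16 C and at 7.00, 320, 319, 160 and 321 in 16 L. In both genes 16 L 18 was below every control and the other 4 were above. The log2 differences were 1.54 ± 0.80 for Col4a1 (adjusted p = 0.211) and 2.45 ± 0.95 for Col4a2 (adjusted p = 0.113). Lama1 (chr17:67697265-67822645), the α1 chain, spread most within 16 L: 44.0, 63.6 and 39.8 CPM in 16 C, 0.50015 (3 counts) in 16 L 18, and 168, 175, 129 and 193 in the rest, with a difference of 1.42 ± 1.09 (adjusted p = 0.388). Lamb1, the β1 chain (chr12:31265234-31329644), was at 25.8 to 63.2 CPM in 16 C and 9.17 to 83.3 in 16 L and differed by -0.09 ± 0.62 (adjusted p = 0.933), or by 0.81 with total-count scaling. Lamc1, the γ1 chain shared by most laminins (chr1:153218922-153332786), and Nid1, which bridges laminin γ1 and collagen IV (chr13:13437602-13512275), differed by 0.77 ± 0.63 and 0.82 ± 0.54 (adjusted p = 0.412 and 0.309).

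Leaving out 16 L 18 changed the calls. Then 5 of 8 members were called higher, namely Hspg2, Col4a1, Col4a2, Lamb2 and Lama1, beside 41.8% of all genes tested. With DESeq2 on all 8 libraries Hspg2, Col4a2 and Lamb2 were called, beside 22.4% of all genes. The oviduct sum was above every control in 3 of the 4 other 16 L libraries and below them, at 129 CPM, in 16 L 19, where Lama1 was at 168, Hspg2 at 157 and Col4a1 at 495 CPM. The part of these markers was not tested. Granulosa markers summed to 933 to 1921 CPM in the 5 libraries of 16 L and 3143 to 4048 in 16 C, without overlap, and their part in these differences was not tested.

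After 4 weeks of diet none of the 9 members that passed the filter was called, beside 4.26% of all genes tested (499 of 11727), and 1 was past an unadjusted p of 0.05, beside 24.3% of all genes. That was Hspg2, at 154, 240, 180, 113 and 155 CPM in 4-week CD and at 104, 105, 90.5, 130 and 97.6 in 4-week HFD, where 4 of 5 libraries were below every control. It differed by -0.69 ± 0.24 (adjusted p = 0.0985, edgeR), and DESeq2 called it alone, beside 11.0% of all genes. Lama1 was at 167, 224, 211, 203 and 179 CPM in CD and at 205, 208, 176, 147 and 136 in HFD. The ranges overlapped (-0.20 ± 0.22, adjusted p = 0.596). Lamb1 was 0.44 ± 0.28 and Lamc1 0.41 ± 0.31 higher on average, again with overlap (adjusted p = 0.350 and 0.428). Col4a1, Col4a2, Nid1, Lamb2 and Lama5 lay between -0.37 and 0.19. No member's groups were separated in CPM with TMM factors, as 6.61% of all genes were, and with total-count scaling Hspg2 alone was separated (means of 121 CPM in HFD and 211 in CD).

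After 16 weeks every member that passed the filter had a lower fitted level in HFD than in CD, and none of the 7 tested was called, beside 0.0276% of all genes (3 of 10861). At an unadjusted p of 0.05 the number was 6 of 7, beside 25.3% of all genes. Hspg2 differed most. Its lowest, median and highest levels were 10.2, 17.8 and 403 CPM in CD and 4.59, 10.1 and 17.8 CPM in HFD. CD 1 and 2 were at 403 and 251 CPM and the other 4 CD libraries at 10.2 to 22.95, which overlapped HFD. The fitted difference was -3.49 ± 0.82 (adjusted p = 0.0654, edgeR).

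The same 2 libraries carried the other members. Col4a2 was at 321 and 281 CPM in CD 1 and 2, at 44.3 to 60.1 in the other 4 and at 19.6 to 67.0 in HFD, and differed by -1.87 ± 0.49 (adjusted p = 0.0654). Lamb2 was at 145 and 144, at 15.6 to 38.5, and at 11.0 to 24.8 CPM in these sets, and differed by -1.84 ± 0.47 (adjusted p = 0.0654). Col4a1 was at 657 and 627, at 117 to 197, and at 137 to 204 CPM (-0.98 ± 0.40, adjusted p = 0.142). For 8 of the 10 members the other 4 CD libraries overlapped HFD. The exceptions were Lama1 and Lama5, and the share of all genes without overlap between these sets was not counted. Without CD 1 and 2, a fit chosen after seeing the data, none of the 7 was past an unadjusted p of 0.05, beside 9.64% of all genes, and Hspg2 differed by -0.33 ± 0.31, Lamb2 by -0.46 ± 0.26, Lamc1 by -0.05 ± 0.25 and Col4a1 by 0.17 ± 0.20. DESeq2 on all 13 libraries called Hspg2, Col4a2, Lamb2 and Lamb1, beside 9.72% of all genes, and edgeR without CD 9 called 5 members, beside 20.5%.

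**Figure D2:**
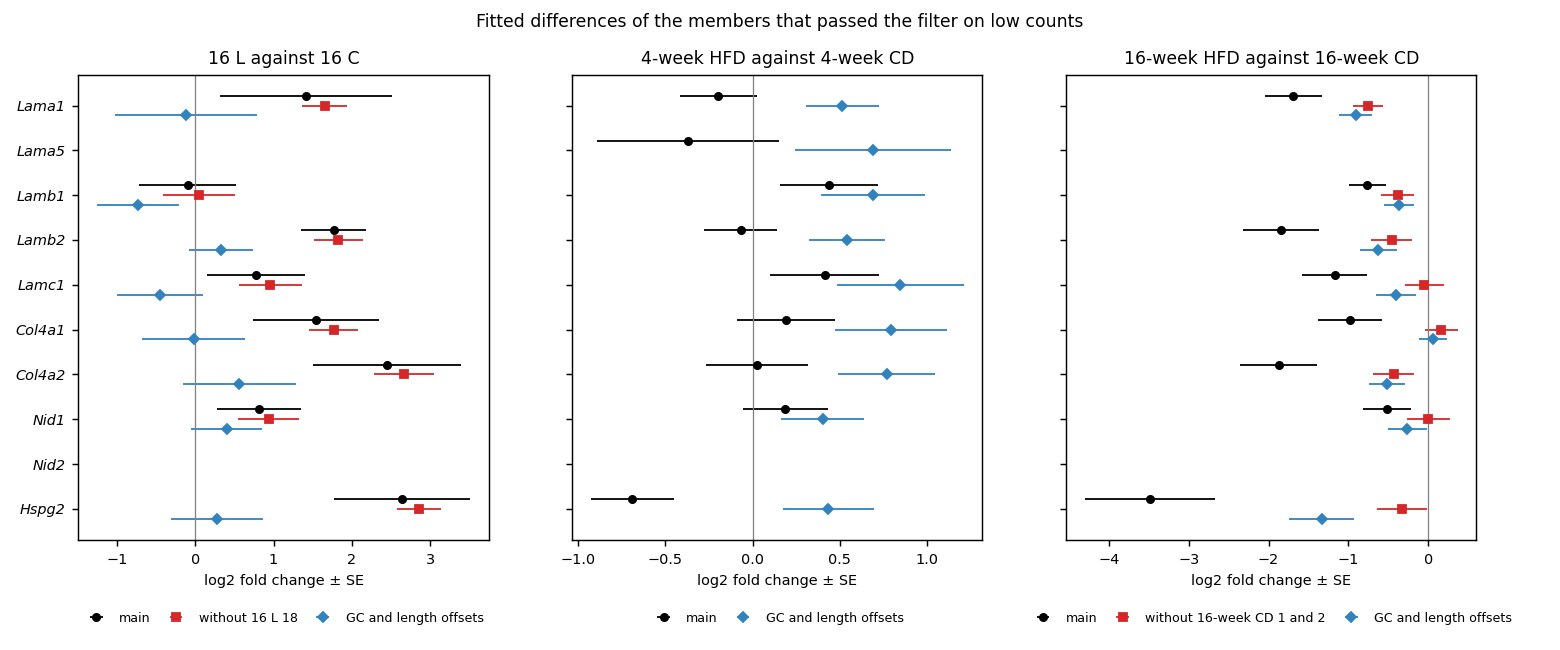
Log2 fold change ± SE of each member that passed the filter in the 3 comparisons with controls, as fitted on all libraries of the comparison (black), without the libraries that stood apart (red) and with per-library offsets for GC content and transcript length (blue). Hspg2 in 16-week HFD moves from -3.49 to -0.33 without CD 1 and 2 and to -1.34 with the offsets.

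The change with diet at 16 weeks minus that at 4 weeks was negative for each of the 9 members that passed the filter. Of the 8 tested, none was called, beside 3.66% of all genes (448 of 12235), and 6 were past an unadjusted p of 0.05, beside 23.4% of all genes. Lama5 had -2.62 ± 0.90 and Hspg2 -2.60 ± 0.94 (adjusted p = 0.0823 and 0.0973, edgeR), Col4a2 -1.77 ± 0.59, Lamb2 -1.62 ± 0.54 and Lamb1 -1.11 ± 0.38 (adjusted p = 0.0771, 0.0745 and 0.0771). Lama5 failed the filter in 16-week HFD against CD and passed it only once the 4-week libraries were included. It had 5 counts in all 7 libraries of 16-week HFD together, so its value rests on few counts. DESeq2 called Col4a2, Lamb2 and Lamb1, beside 9.52% of all genes. Without CD 1 and 2 at 16 weeks the value of Hspg2 turned to 0.33 ± 0.38. The controls of the 2 durations differed as well: Hspg2 was at 113 to 240 CPM in 4-week CD, above 4 of the 6 libraries of 16-week CD.

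Lama1 in the low weight gainers is the contrast that chose the set. It was at 199, 206 and 166 CPM there and at 43.9, 65.8 and 79.1 CPM (lowest, median and highest) in 16-week HFD, a ratio of means of 3.09. No low gainer overlapped 16-week HFD, as was the case for 20.4% of all genes tested in that contrast. The other 9 members overlapped. On the log2(CPM + 1) scale the low gainers were 1.07 higher in Col4a2 (101, 67.8 and 63.8 CPM against 19.6 to 67.0), 0.57 higher in Hspg2 (15.8, 13.9 and 16.4 against 4.59 to 17.8), 0.99 lower in Nid1 (6.93, 13.6 and 5.47 against 13.33 to 21.999) and 0.34 lower in Col4a1. Lamb1 differed by 0.01 and Lamc1 by 0.25. Against 16-week CD, Lama1 of the low gainers lay within the range of 93.1 to 400 CPM. Lama5 was separated there (0.261 to 0.825 against 0.905 to 4.30 CPM, few counts), in a contrast where 7.52% of all genes were.

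By median CPM the groups ranked for Lama1 as 16 C (44.0), 16-week HFD (65.8), 16-week CD (122), 16 L (168), 4-week HFD (176), low weight gainers (199) and 4-week CD (203). 16 C and 16-week HFD overlapped in range, 16-week HFD and 16-week CD did not, and each later neighbour overlapped the next. Between 16-week HFD and CD, separation without overlap was seen in 0.976% of all genes. The 16-week HFD values of Lama1 helped to choose the set, so this share does not measure how rare its separation is. Lama1 in CD 5, 8, 9 and 13 was at 93.1 to 137 CPM, above the highest HFD library at 79.1. The fitted difference, a description here, was -1.69 ± 0.36, or -0.76 ± 0.19 without CD 1 and 2.

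Lama5, the α5 chain of most adult basement membranes (chr2:180176373-180225859), had 399 counts in all 34 libraries. It was at 0 in 3 of 7 libraries of 16-week HFD and at most 0.488 CPM there, below the 0.905 to 4.30 CPM of CD. These are 0 to 2 counts per library in HFD and 18, 23, 11, 2, 4 and 2 counts in CD 1, 2, 5, 8, 9 and 13. In 16 L 18 it reached 17.2 CPM against 1.80 to 3.92 in the other 16 L libraries. Nid2 (chr14:19751257-19811787), the second nidogen, had 205 counts in all and was highest in 16 L 18 at 8.84 CPM. Lama5 and Nid2 were thus the 2 members that were highest in the library with the oviduct and stroma markers, where the other 8 were lowest of the 5.

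Col4a1 and Col4a2, which share a bidirectional start, had a ratio whose median differed by group, with overlap between several groups. Per kilobase, the median of Col4a1 over Col4a2 was 0.895 in 4-week CD and 0.862 in 4-week HFD, 1.38 in 16 L, 1.51 in the low gainers, 2.22 in 16-week CD, 2.25 in 16 C and 4.23 in 16-week HFD. The range was 2.00 to 3.36 in 16-week CD and 2.97 to 8.68 in HFD, and 6 of the 7 HFD libraries were above every CD library. It was 2.095 to 4.48 in 16 C, which overlapped both, and 1.27 to 2.44 in 16 L. The 4-week groups reached 1.545 (CD) and 1.76 (HFD), within the range of 16 L. The transcripts differ in GC content (57.7% in Col4a1, 60.6% in Col4a2), and its part in the ratio was not tested. In 16-week CD 1 and 2 the ratio was 2.00 and 2.18, beside 2.18, 2.26, 3.19 and 3.36 in CD 5, 8, 9 and 13. The 3 low gainers, at 1.45 to 1.95, were below all 7 HFD libraries. That contrast chose the set, and 20.4% of all genes tested did not overlap in it. The shares of gene pairs whose ratio has this order, or the order seen between 16-week HFD and CD, were not counted.

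**Figure D3:**
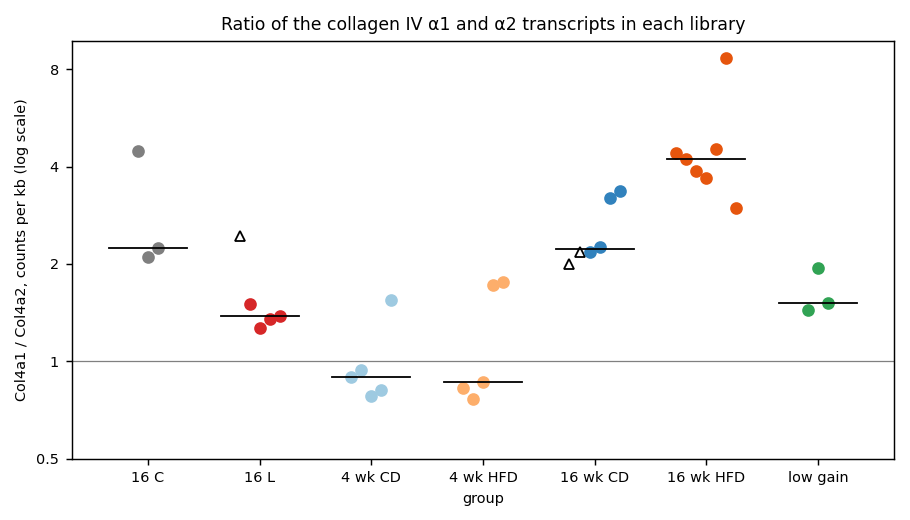
Ratio of Col4a1 to Col4a2 counts per kilobase in each library on a log scale, by group, with medians as lines and open triangles for 16 L 18 and 16-week CD 1 and 2. Most libraries of 4-week CD and 4-week HFD lie below 1, and those of 16-week HFD lie between 2.97 and 8.68.

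Across the 34 libraries, after removal of the group means, 6 pairs of members were correlated on log2(CPM + 1), with permutation p-values adjusted over the 6 pairs. Col4a1 and Col4a2 had r = 0.926 (p = 1e-04, the adjusted value 3e-04) and rho = 0.698 (p = 0.00135, adjusted 0.00531), and r = 0.823 without the 2 libraries farthest from the median. Nid1 and Lamc1 had r = 0.791 (p = 3e-05, adjusted 0.00018) and rho = 0.613 (p = 0.00177, adjusted 0.00531), and 0.676 without the farthest 2. Lamb1 and Lamc1 had r = 0.702 (p = 0.00017, adjusted 0.00034) and rho = 0.489 (p = 0.00821, adjusted 0.0123), and 0.507. Lama1 and Lamc1 had r = 0.684 (p = 0.00285, adjusted 0.00428) and rho = 0.560 (p = 0.00418, adjusted 0.00836), and 0.636. These values lean on the libraries that stood apart: without 16 L 18 and 16-week CD 1 and 2, r was 0.488, 0.570, 0.494 and 0.140 in that order. Lama5 and Lamb2 (r = 0.175, permutation p = 0.388, adjusted 0.466, rho = 0.151, p = 0.434, adjusted 0.434) and Nid1 and Nid2 (r = 0.032, p = 0.897, adjusted 0.897, rho = 0.283, p = 0.174, adjusted 0.209) were not past the threshold, and r without the farthest 2 was 0.419 and 0.369.

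The members had long and GC-rich transcripts, of 4876 to 14187 bases and 50.4% to 60.9% GC, and the differences of all genes moved with GC content. In 16 L the median log2 difference rose from -0.24 in the 20% of genes with the lowest GC to 1.20 in the 20% with the highest. In 16-week HFD it fell from 0.23 to -0.54 and in 4-week HFD from 0.23 to -0.23. Per library, genes in the top 20% by GC deviated from their own means by -0.60 to -0.29 (log2, median) in 16 C and -0.89 to -0.39 in 16-week HFD, but by 0.32 to 0.75 in 4-week CD. CD 1 and 2 at 16 weeks, at 0.52 and 0.43, lay within the range of 4-week CD and above the other 4 of their group, at -0.60 to -0.26. The range was -0.13 to 0.57 in 4-week HFD and -0.03 to 0.69 in 16 L, which also held these values. With offsets for GC and length, added after seeing the data, no member was called by edgeR in 16 L (0 of 8, 0 unadjusted beside 28.6% of all genes, from -0.73 for Lamb1 to 0.56 for Col4a2) or in 16-week HFD (0 of 7 tested, 3 unadjusted beside 20.4% of all genes, from -1.34 for Hspg2 to 0.06 for Col4a1). Lamb2 in 16 L then differed by 0.33 ± 0.41 (adjusted p = 0.631, edgeR). In 4-week HFD all 9 members took positive values, from 0.40 for Nid1 to 0.85 for Lamc1, and none was called (6 unadjusted, beside 25.7% of all genes). How much of each difference belongs to GC content was not tested.

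**Figure D4:**
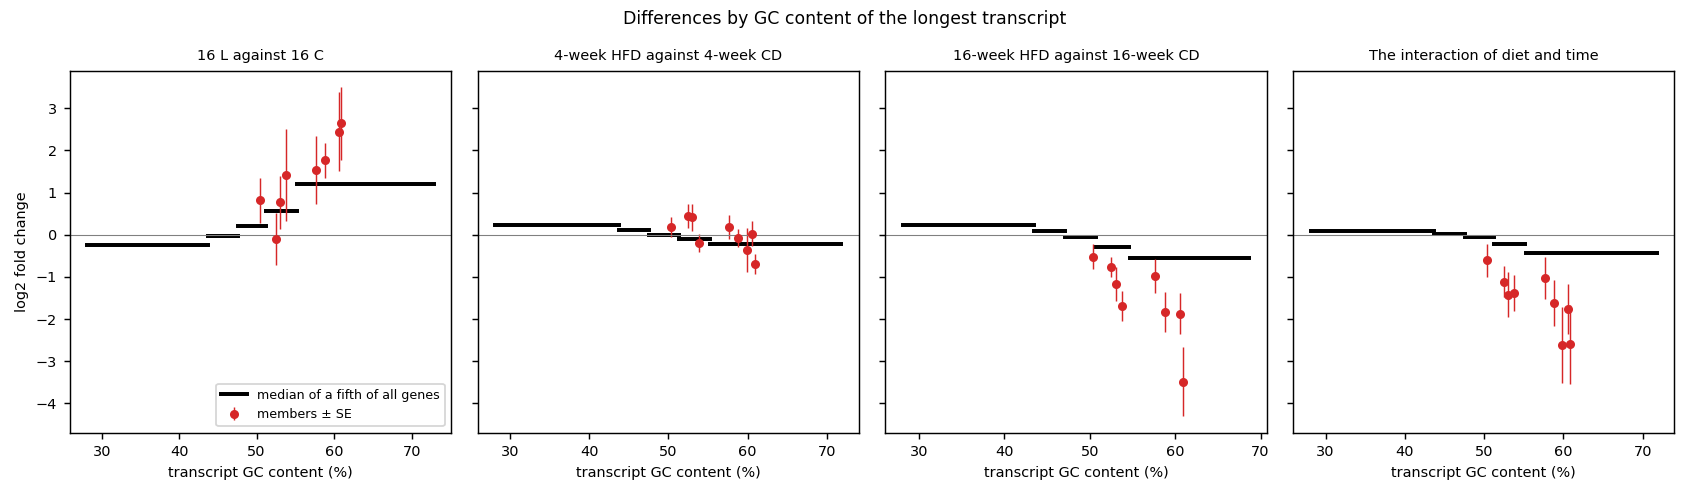
Log2 fold change against GC content of the longest transcript, in 4 fits, with black bars for the median of all genes in 5 equal bins of GC content and red points for the members ± SE. The bars run from -0.24 to 1.20 in 16 L and from 0.23 to -0.54 in 16-week HFD, and Hspg2, at 60.9% GC, is the farthest member from 0 in both.

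**Figure D5:**
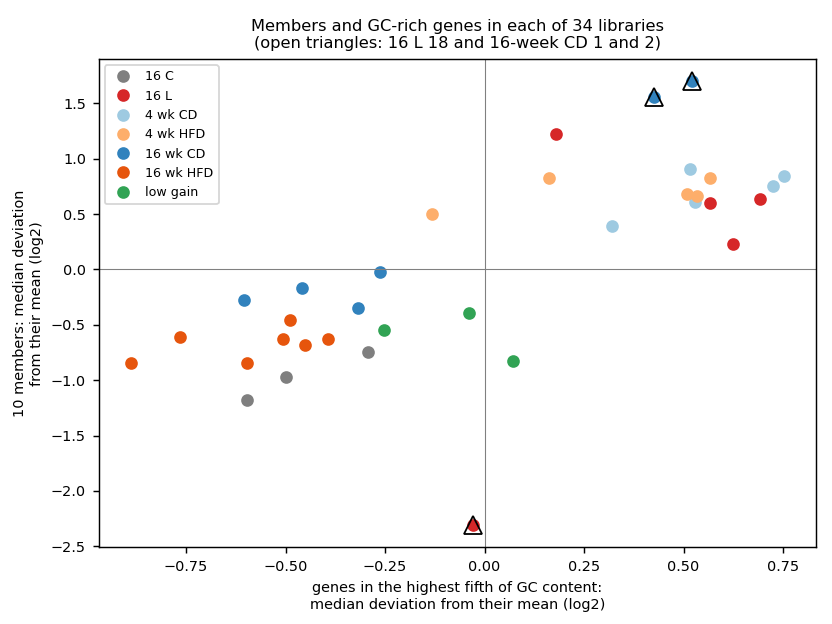
Median deviation of the 10 members from their means over 34 libraries (vertical axis, log2) against that of the genes in the top 20% by GC content (horizontal axis, log2), 1 point per library. All 10 libraries of the 4-week groups lie above 0 on the vertical axis and all 7 of 16-week HFD and 3 of 16 C below 0, while 16 L 18 is at -2.31 with GC-rich genes at -0.03.

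Of 48 other genes of the basement membrane in 5 lists, 37 passed the filter in 16 L and 3 were called (8.11%), a share near the 8.56% of all genes. Among 12 further components, 11 passed the filter in 16 L and 1 was called. Fbln2, encoding fibulin-2, was higher at 6.22 ± 1.65 (adjusted p = 0.0475, edgeR), with 0, 0.237 and 0 CPM in 16 C, 43.3 in 16 L 18 and 1.30 to 8.26 in the other 4. At such levels in 16 C, the gene passed the filter through 16 L libraries alone, so only a rise could be called. Fbln2 was not called with the GC and length offsets (5.96 ± 2.08, adjusted p = 0.104) and did not pass the filter without 16 L 18. Without 16 L 19 its adjusted p was 0.0316, and without any 1 of the other 6 libraries it was between 0.0813 and 0.184 and not called. Among these components Sparc was the most abundant and differed by -1.04 ± 0.50 (adjusted p = 0.177). Of the 6 other laminin chains and the 4 other collagen IV chains, 2 each passed the filter in 16 L, and none was called or past an unadjusted p of 0.05, with 0 called by DESeq2. No gene of these 3 lists was called in 4-week HFD or 16-week HFD. In 4-week HFD 2 were past an unadjusted p of 0.05 and DESeq2 called 1, beside 24.3% and 11.0% of all genes. In 16-week HFD these numbers were 5 and 4, beside 25.3% and 9.72%. In the interaction, Col18a1, encoding collagen XVIII, had -2.68 ± 0.76 (adjusted p = 0.0470) and Fbln1, encoding fibulin-1, -1.65 ± 0.46 (adjusted p = 0.0423). They were 2 calls among 9 further components that passed the filter, beside 3.66% of all genes. Col18a1 was at 326 and 298 CPM in 16-week CD 1 and 2, at 25.1 to 37.3 in the other 4 and at 15.3 to 37.5 in HFD, whereas in 4-week HFD it was at 123 to 240. Without CD 1 and 2 the interaction values of Col18a1 and Fbln1 became -0.79 and -0.94 (adjusted p = 0.323 and 0.160). Neither was called with the GC and length offsets (adjusted p = 0.0501 and 0.0657) or with a block for the replicate numbers in the titles (0.106 and 0.326). That block gives each number its own term. With it 10 of all genes were called, against 448 without it, so a lost call says little about a single gene.

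Of the 12 receptors, 10 passed the filter in 16 L, with 1 called higher and 1 lower, beside 8.56% of all genes. Ddr1, a collagen-binding receptor tyrosine kinase, rose by 2.56 ± 0.35 (adjusted p = 0.00934, edgeR), from 10.6, 14.8 and 12.4 CPM in 16 C to 50.2 to 89.7 in the 5 libraries of 16 L, and had 1.03 with the GC and length offsets (adjusted p = 0.103). Sdc4, the syndecan-4 proteoglycan, had 10578, 15418 and 8944 CPM in 16 C and 513 to 989 in 16 L, so that it fell by 3.93 on the log2 scale (SE 0.52, adjusted p = 0.00829), and had -3.86 with the offsets (adjusted p = 0.00393). Bcam, a laminin α5 receptor, and Itga3, the integrin α3 chain, had 3.24 ± 0.88 and 2.80 ± 0.86 and were not called (adjusted p = 0.0509 and 0.0663). Itgb1, the shared integrin β1 chain, and Dag1, dystroglycan, differed by -0.02 and 0.03. In the interaction, Itga6, the integrin α6 chain of laminin receptors, had 1.31 ± 0.37 and Itga2, of collagen receptors, -2.05 ± 0.58 (adjusted p = 0.0470 and 0.0460), 2 calls among 10 receptors beside 3.66% of all genes. Neither was past the threshold without CD 1 and 2 (adjusted p = 0.120 and 0.194) or with the block for replicate numbers (0.457 and 0.0576). Itga6 and Itga2 were both called with the GC and length offsets (0.0277 and 0.0297). With the block 10 of all genes were called, against 448 without it, so the loss of a call there says little about a single gene. The 12 measured assembly enzymes, among them the prolyl hydroxylase P4ha1, the lysyl hydroxylases Plod1 to Plod3, the collagen chaperone Serpinh1 and the collagen IV peroxidase Pxdn, held no call in any of the 4 edgeR fits. In 16 L, 2 of 12 were past an unadjusted p of 0.05 (32.4% of all genes) and DESeq2 called 2 (22.4%). The numbers after 4 weeks of HFD were 0 and 0 (24.3% and 11.0% of all genes), after 16 weeks 8 and 6 (25.3% and 9.72%), and for the interaction 4 and 3 (23.4% and 9.52%).

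The genes whose pattern over the 34 libraries was most like that of Lama1, by Spearman's rho on log2(CPM + 1) among 13235 genes, were Lrp1 (rho = 0.910), Traf7 (0.892), Tfip11 and Klc4 (0.890 each) and Nisch (0.888). The libraries share depth and GC effects, and the values are a description. Of the members, Col4a2 was nearest at 0.862, ranked 25.5, followed by Lamb2 at 0.747 and Hspg2 at 0.738. Lamc1 was at 0.686, Col4a1 at 0.622, Lama5 at 0.552, and Lamb1 and Nid1 at 0.448 and 0.443.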

How the data were processed

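The authors captured mRNA from CCs with Smart-seq2 oligo-dT beads, made Nextera XT libraries and deposited 1 table of raw counts, whole-number reads per gene and library, without normalization. The submitters' processing notes name Trim Galore 0.4.2, HISAT2 2.0.5 and GRCm38. The counting program and its strand setting are not given in the sources used here. Groups came from the sample titles.

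Tests on the counts used edgeR 4.0.16 under R 4.3.3 (TMM, filterByExpr, robust quasi-likelihood F-test, two-sided, Benjamini-Hochberg adjusted p of 0.05 over all genes tested), each comparison on its own libraries. DESeq2 1.42.0 and limma-voom (limma 3.58.1) were alternatives, and each was tested on simulated data, where DESeq2 made a larger share of false calls than the others. The simulated counts used dispersions estimated by edgeR and held no library that stood apart and no GC trend. That share need not hold for the real counts. Levels are CPM with TMM factors over 34 libraries, and log2 values use a pseudocount of 1. Correlations used 100000 permutations within groups. Transcript length and GC content, from GENCODE M21, were matched for at least 90.22% of genes tested, and offsets came from a loess with span 0.5. Intervals of 3 counts cover counting error only. Members and lists were chosen with earlier results of these data known. The text names all members, each called gene of the other basement membrane lists with at most 4 others per list of highest mean CPM or chosen after their values were seen (Bcam, Itga3), and the 5 genes nearest to Lama1.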

Additional observations from a re-analysis of the deposited data

Results flagged for a closer look

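Each member was examined for a single library far from the others in the groups of 5 to 7 libraries, which made 50 sets of values, and 6 were marked, where chance marks about 1 in 20. In 16 L 18, the library with the oviduct and stroma markers, Lama5 stood high at 17.2 CPM and Hspg2 low at 5.00 CPM. In 4-week HFD 13, Lamb2 stood high at 91.1 CPM, against 61.6 to 63.0 in the other 4 libraries, and Lamc1 at 102.5 CPM, against 67.3 to 76.3. In 4-week CD 11, Lamb1 stood high at 114 CPM, against 40.0 to 59.9. In 16-week HFD 14, Nid2 stood high at 2.76 CPM, which is 3 counts in that library.

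By the edgeR test of the interaction of diet and time, 4 of 36 other basement membrane genes were called (11.1%), beside 3.66% of all genes. No member was called by that test. Of 8 members, 6 were past an unadjusted p of 0.05, beside 23.4% of all genes, and DESeq2 called 3, beside 9.52%. The difference of the log2 changes was 1.31 for Itga6, -2.68 for Col18a1, -2.05 for Itga2 and -1.65 for Fbln1, and none of these 4 was called without 16-week CD 1 and 2. With a block for the replicate numbers in the titles, edgeR called none of them either (adjusted p = 0.457, 0.106, 0.0576 and 0.326 in that order). The same block left 10 calls among all genes, against 448 without it, so it says little about these 4. With the GC and length offsets Col18a1 and Fbln1 were not called (adjusted p = 0.0501 and 0.0657), while Itga6 and Itga2 were (0.0277 and 0.0297).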

How the results depend on the processing

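In 16 L against 16 C, 1 of 8 members was called, beside 1004 of all 11723 genes tested. With DESeq2 3 were called (2629 of all genes), with limma-voom and sample quality weights 6 (7474) and with total-count scaling 3 (3966). With all 34 libraries in one fit 5 were called (4384 of 13236 genes). No member was called with no filter on low counts (504 of 18962) or with the GC and length offsets, with 16 L 18 (757) or without it (3764 of 11077). Leaving out 1 library at a time gave 0 to 5, with 5 without 16 L 18 (4635 of 11077 genes), 1 without 16 L 19 (1603 of 11103) and 0 without each of the others. Total-count scaling moved the median of all genes from 0.27 to 1.07 (4-week HFD -0.01 to -0.12, 16-week HFD -0.05 to -0.39, interaction -0.09 to -0.39), and the calls from 476 higher and 528 lower to 3567 and 399 (16-week HFD 1 and 2 to 55 and 1567, interaction 213 and 235 to 187 and 686, and in 4-week HFD from 140 higher of 499 to 90 of 658). The small value of Lamb1 turned to 0.81 with total-count scaling and 0.052 with at least 10 counts in every library, and ranged from -0.57 to 0.40 with 1 library left out. With the GC and length offsets Lama1 turned to -0.12, Col4a1 to -0.021 and Lamc1 to -0.45 (-0.22 without 16 L 18).

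In 4-week HFD, where none of 9 was called, DESeq2 called 1 (1291 of all 11727 genes) and limma-voom 2 (4052), and 0 were called with any library left out. The offsets turned Lama1 to 0.51, Lama5 to 0.69, Lamb2 to 0.54 and Hspg2 to 0.43. Col4a2 turned to -0.060 with total-count scaling and ranged from -0.10 to 0.28 with 1 library left out.

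In 16-week HFD, where none of 7 was called, DESeq2 called 4 (1056 of all 10861 genes) and total-count scaling 6 (1622). The fit on all 34 libraries called 4 (1258 of 13236). With 1 library left out 0 to 5 were called: 5 without CD 9 (2222 of 10830), 3 without CD 13 (473 of 11017) and 0 otherwise. Col4a1 turned to 0.059 with the offsets and to 0.17 without CD 1 and 2, and Nid1 to 0.0031 there. In the interaction, where none of 8 was called, DESeq2 called 3 (1165 of all 12235 genes), limma-voom 1 (2289), total-count scaling 4 (873) and the offsets 2 (731). With 1 library left out 0 to 6 were called. There were 6 without 16-week CD 9 (1685 of 12208) and 2 without 16-week CD 13 (576 of 12218) or 4-week CD 11 (1204 of 12377). There was 1 without 16-week CD 5 (670 of 12200) or 8 (474 of 12226), and 0 otherwise. Hspg2 turned to 0.33 without 16-week CD 1 and 2. Pairing was not tested: deviations of 7 pairs sharing a number across durations had r of -0.29 to 0.16, with no others to compare. With the replicate block 0 members and 10 of all genes were called, against 448 without it. With the block and the offsets 1 member was called, beside 686 of all genes.

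Counts of all genes called also moved: 1004 in 16 L became 2629 with DESeq2, 7474 with limma-voom, 504 with no filter and 4384 in the fit on all libraries, 499 in 4-week HFD became 1291, 4052 and (all libraries) 69, 3 in 16-week HFD became 1056 with DESeq2, 13 with no filter and 1258 (all libraries), and 448 in the interaction became 1165, 2289 and (all libraries) 157. With 1 library left out they ran from 30 to 4635, 8 to 1700, 1 to 2222 and 69 to 1685. The number of members separated between low gainers and 16-week HFD was 1, beside 20.4% of all genes tested. It was 2 with total-count scaling (2080 of 11258 genes) and with RLE size factors, and 1 to 2 with 1 library left out. Against 16-week CD it was also 1 to 2 with 1 library left out. The 6 correlations kept their direction and their side of the threshold under both alternatives. The causes of these changes were not tested. Groups of 3 to 7 libraries limit the precision, as do the low counts of Lama5 and Nid2, which had 399 and 205 counts over all 34 libraries.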
